A study of Homo sapiens with 12 samples.

Results

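The genes described here encode integrins, laminins, other proteins of the basement membrane and the receptors and linkers that attach cells to it. They are 33 genes chosen by symbol, with earlier results of these data known. Each matched a single Ensembl identifier among the 62656 rows of the deposited count table. They comprise 8 integrin alpha chains (ITGA1, ITGA2, ITGA3, ITGA5, ITGA6, ITGA7, ITGAV, ITGAE), 6 integrin beta chains (ITGB1, ITGB3, ITGB4, ITGB5, ITGB6, ITGB8), 8 laminin chains (LAMA1, LAMA3, LAMA4, LAMA5, LAMB1, LAMB2, LAMB3, LAMC1), the matrix proteins HSPG2, AGRN, NID1 and NID2, the surface receptors BCAM, DAG1, CD44, SDC1 and SDC4, the tetraspanin CD151 and the cytolinker PLEC.

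RNA was sequenced from 12 libraries of established human colorectal cancer cell lines. In HCT116, 3 libraries overexpressed (OE) SLERT, a long non-coding RNA, and 3 were controls, whose columns are headed as empty vector. In LoVo, 3 libraries were labelled as SLERT knockdown (KD) and 3 were controls, with column headings that read as a short hairpin and its negative control. The study set out to follow SLERT in liver metastasis of colorectal cancer. The labels name neither clones nor pools. They do not say if a group's libraries are from different cultures, and p-values here may therefore reflect technical spread alone. The RNA extraction text mentions retinas, but the remaining labels give HCT116 or LoVo.

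Basement membranes are thin sheets of matrix under epithelia, built on networks of laminin and type IV collagen that nidogens and the proteoglycans perlecan and agrin tie together. Laminins are trimers of an alpha, a beta and a gamma chain, and integrins are dimers of an alpha and a beta chain that bind matrix outside the cell and actin or keratin inside it. In the gut epithelium the ITGA6 and ITGB4 chains pair into a laminin receptor that plectin ties to keratin, while ITGB1 serves as partner of many alpha chains and ITGAV as partner of many beta chains.

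Total counts per library lay between 14.46 and 17.23 M. Of 14 markers of colorectal epithelium, the summed FPKM (read counts scaled by gene length and library total, as deposited) was 1124 to 1193 in HCT116 OE and 1118 to 1162 in HCT116 controls, and 1692 to 1789 in LoVo KD and 1893 to 1989 in LoVo controls. CDX1 was at 0 in all HCT116 libraries and CEACAM5 in the HCT116 controls. The sum of 14 fibroblast and endothelial markers was 8.71 to 9.12 FPKM in HCT116 OE and 9.69 to 10.4 FPKM in HCT116 controls. It was 2.94 to 2.96 FPKM in LoVo KD and 4.48 to 4.91 FPKM in LoVo controls, with CDH5, COL1A2 and KDR at 0 in both LoVo groups. Leukocyte, hepatocyte and retina markers summed to at most 5.82 FPKM in any library. COL3A1, a fibroblast collagen, was lower in LoVo KD (2.15 CPM in KD and 12.8 CPM in controls). Of the 14 epithelial markers 6 rose and 6 fell there, led by CDH17 (log2 fold change 0.78) and KRT20 (-1.08). Both counts are calls of the test described below (edgeR, adjusted p under 0.05), which called 26.3% of all genes tested in LoVo. The part of these shifts in the results below was not tested. At the SLERT locus, SNORA5C, a snoRNA that forms an end of SLERT, had 1926 counts over the OE libraries against 16 over their controls. It had 37 counts over the LoVo KD libraries and 37 over the LoVo controls. SNORA5A had 142 counts over OE, 0 over HCT116 controls, 10 over LoVo KD and 12 over LoVo controls, and SNORA5B had 0 in all groups. TBRG4, at the same locus, had 12181 counts over OE, 8181 over HCT116 controls, 10675 over LoVo KD and 10055 over LoVo controls. The locus thus showed no clear fall with the KD label, though a fall could be missed at so few snoRNA counts. LoVo directions below are those of the libraries by label.

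The levels of the 33 genes covered a wide range. In HCT116 OE and HCT116 controls alike, 19 of them averaged at least 10 FPKM. In LoVo, 16 did so in KD and 15 in controls. In the controls of both lines 8 averaged under 1 FPKM, as did 9 in HCT116 OE and 8 in LoVo KD. In HCT116 the highest levels were those of PLEC, at 75.8 ± 6.84 FPKM in OE and 77.2 ± 6.71 FPKM in controls, ITGB4, at 60.1 ± 5.48 and 66.8 ± 2.92 FPKM in OE and controls, and ITGA3, at 58.9 ± 3.70 and 63.7 ± 2.12 FPKM in OE and controls (SD, n = 3). The ranges of ITGB4 and ITGA3 overlapped within each HCT116 group. Within libraries ITGB4 lay above ITGA3 in every control and in OE 1 and OE 3, but not in OE 2 (54.6 and 55.8 FPKM). Their order was not tested. In LoVo, ITGB4 stood above all others, at 160 ± 16.5 FPKM in KD and 142 ± 7.47 FPKM in controls. ITGA6, its partner chain, stood at 59.3 ± 4.68 and 53.9 ± 1.29 FPKM in KD and controls, and LAMB3, a chain of the laminin of hemidesmosomes, at 47.4 ± 2.63 and 48.9 ± 1.70 FPKM in KD and controls. PLEC had 46.4 ± 7.57 FPKM in LoVo KD and 62.0 ± 3.30 FPKM in LoVo controls. At the low end, NID1 had 0 counts in each HCT116 OE library and 1 count in each HCT116 control. It had 0 counts in each LoVo KD library and 1, 3 and 4 counts in the LoVo controls, and a count of 0 in a library allows up to 3.

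**Figure D1:**
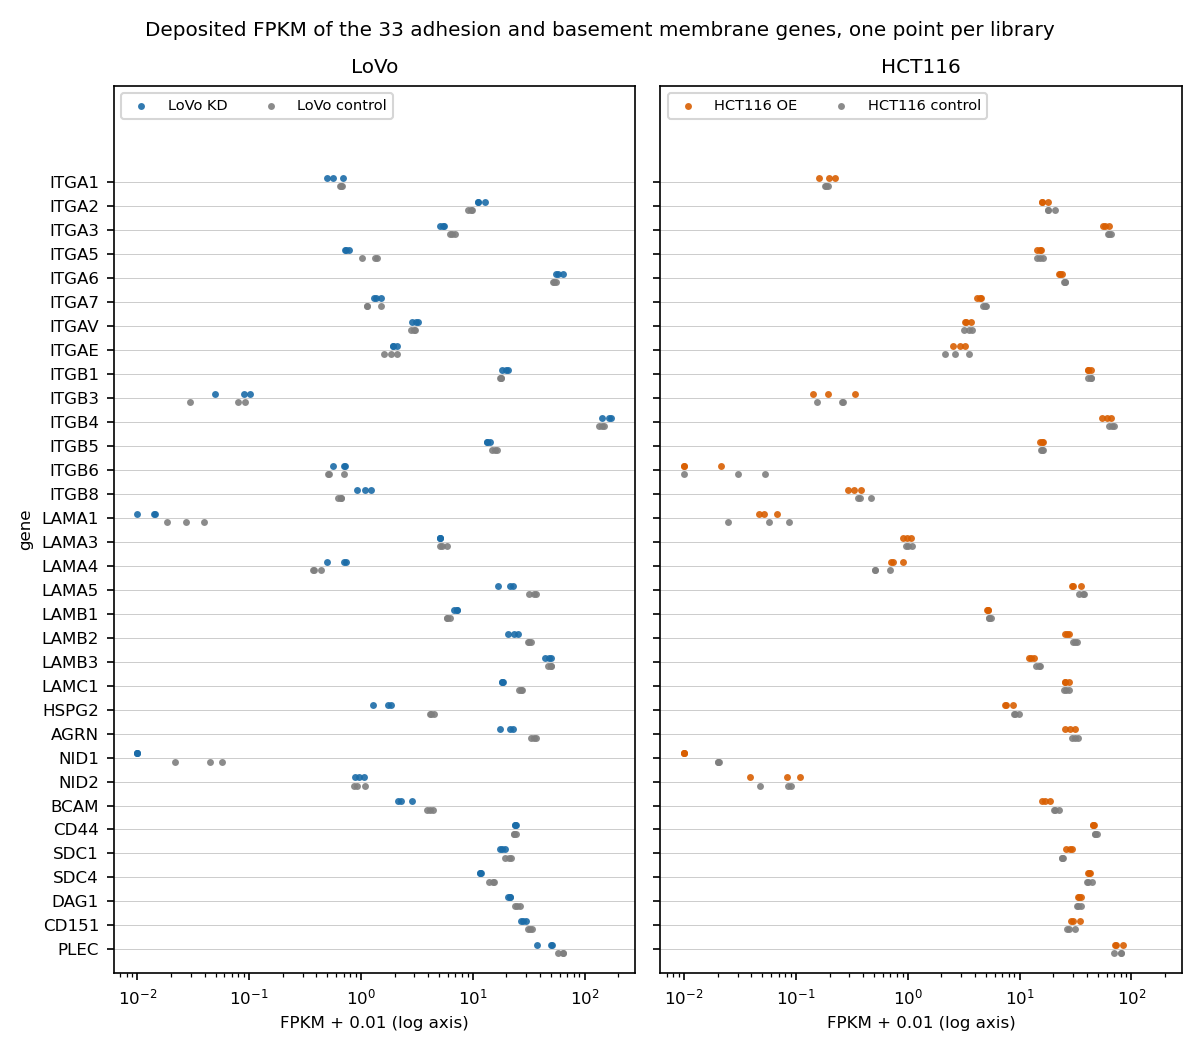
Deposited FPKM plus 0.01 on a log axis for the 33 genes (rows), with 1 point per library, LoVo at the left (KD blue, control grey) and HCT116 at the right (OE orange, control grey). ITGB4 is the highest row in LoVo, and NID1 and LAMA1 lie at the low end in both lines.

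The comparison within LoVo asked which of these genes differ with the KD label. The proteoglycans of the basement membrane and several laminin chains were lower in KD libraries, led by HSPG2 at 2.59-fold lower, while the integrin ITGB8 and the laminin chain LAMA4 were 1.71-fold and 1.68-fold higher. Of the 33 genes, 30 had enough counts for the test and 18 passed it, 7 higher and 11 lower in KD. That is 60% of those tested, against 26.3% of all 16253 genes tested (12.6% higher and 13.7% lower). In LoVo controls 15 of the 33 averaged at least 10 FPKM, and the shares were not compared at matched abundance. The test was edgeR's quasi-likelihood test with Benjamini-Hochberg adjustment over all genes tested, at an adjusted p under 0.05. The median log2 fold change of the 30 was -0.11, against 0.00 for all genes tested. Only HSPG2 changed 2-fold or more. KD and control libraries did not overlap for 19 of the 30, against 39.7% of all genes tested. In bulk RNA, fewer cells that express a gene and less RNA per cell cannot be told apart. ITGB3, LAMA1 and NID1 had too few counts to be tested, with 2 counts of LAMA1 over the KD libraries and 13 over the controls.

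**Figure D2:**
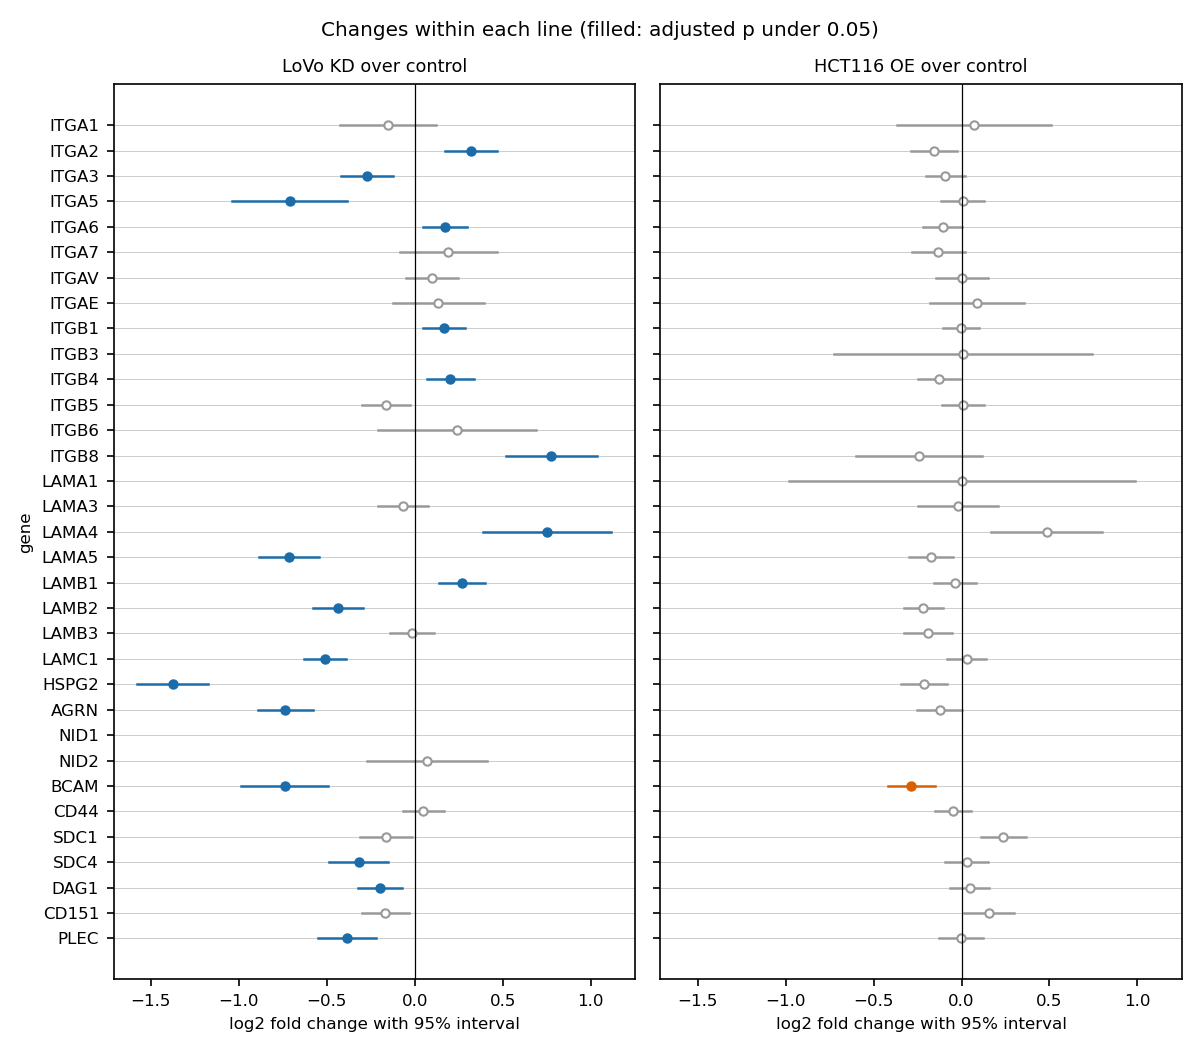
Log2 fold changes with 95% intervals from edgeR for each tested gene, LoVo KD over control at the left and HCT116 OE over control at the right, filled where the adjusted p is under 0.05. In LoVo 18 points are filled, 11 of them left of 0, with HSPG2 farthest at -1.38, and in HCT116 only BCAM is filled, at -0.29.

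Both matrix proteoglycans fell in LoVo KD. HSPG2, which encodes perlecan, a heparan sulfate proteoglycan that binds laminin and nidogen, spans 21822245 to 21937297 of chromosome 1, minus strand (GRCh38, GENCODE v29). It had 34.3, 23.3 and 31.7 normalised CPM (counts scaled by the normalised library size) in KD libraries 1, 2 and 3, and 80.0, 75.8 and 75.1 CPM in control libraries 1, 2 and 3. Every KD library lay far below every control, and KD 2 was the lowest (log2 fold change -1.38, SE 0.098, edgeR adjusted p = 3.54e-10). AGRN encodes agrin, a proteoglycan that binds laminin and dystroglycan, and its gene spans 1020123 to 1056118 of chromosome 1, plus strand. It had 252, 191 and 233 CPM in KD libraries and 389, 353 and 381 CPM in controls. The groups did not overlap and KD 2 was again the lowest (log2 fold change -0.74, SE 0.075, edgeR adjusted p = 1.33e-07). Of the nidogens, which join laminin to type IV collagen, NID2 did not pass (log2 fold change 0.07, adjusted p = 0.802), at 6.08, 5.53 and 6.67 CPM in KD and 5.23, 5.56 and 6.62 CPM in controls. NID2 shares its locus with RTRAF, which has more counts, and strand use in counting is not given in the sources used here.

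Laminin chains moved both ways in LoVo KD, with LAMA5, LAMB2 and LAMC1 lower and LAMA4 and LAMB1 higher. LAMA5, the main laminin alpha chain of adult epithelial basement membranes, had 336, 243 and 313 CPM in KD libraries and 516, 447 and 500 CPM in controls. All KD values lay below all control values (log2 fold change -0.72, SE 0.083, edgeR adjusted p = 9.23e-07). LAMC1, the gamma chain shared by most laminins, had 158, 157 and 158 CPM in KD and 229, 226 and 218 CPM in controls. Its KD libraries were nearly level with each other and well below the controls (log2 fold change -0.51, SE 0.058, adjusted p = 5.78e-07). LAMB2, a beta chain found beside LAMA5, had 178, 144 and 161 CPM in KD and 227, 211 and 217 CPM in controls, without overlap (log2 fold change -0.44, SE 0.069, adjusted p = 5.63e-05). LAMA4, an alpha chain best known from vessel walls, had 8.91, 8.36 and 5.93 CPM in KD and 4.30, 4.37 and 5.10 CPM in controls. KD 3 lay closest to the controls but still above them (log2 fold change 0.75, SE 0.18, adjusted p = 0.00295). LAMB1, the other widespread beta chain, had 137, 127 and 135 CPM in KD and 115, 107 and 109 CPM in controls, without overlap (log2 fold change 0.27, SE 0.063, adjusted p = 0.00281). The calls of LAMA4 and LAMB1 were lost on log2(FPKM + 1), with adjusted p = 0.0588 and 0.0559. DLD, which has more counts than LAMB1, overlaps its locus.

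The chains of the hemidesmosome laminin did not pass the test in LoVo. LAMB3 had 235, 209 and 224 CPM in KD and 230, 216 and 231 CPM in controls (log2 fold change -0.02, 95% interval -0.14 to 0.11). LAMA3 had 74.9, 74.0 and 74.9 CPM in KD and 84.6, 73.0 and 76.8 CPM in controls (log2 fold change -0.07, 95% interval -0.21 to 0.08). The KD and control ranges of both genes overlapped.

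**Figure D3:**
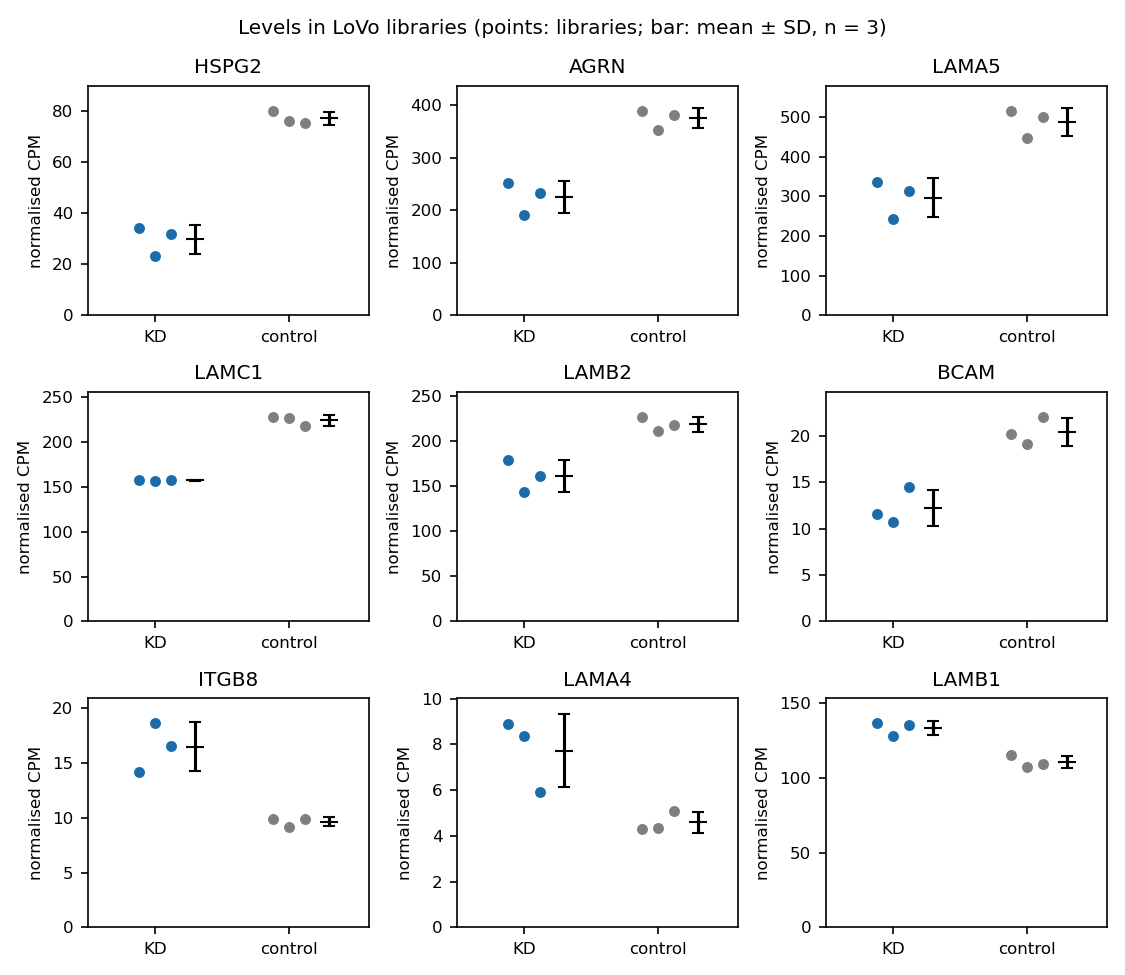
Normalised CPM in each LoVo library (points) for 9 of the genes, KD at the left of each panel and control at the right, with mean ± SD (n = 3 each) beside the points and each axis starting at 0. The upper 6 genes lie lower in every KD library than in any control (HSPG2 at most 34.3 against at least 75.1 CPM), and ITGB8, LAMA4 and LAMB1 lie higher in every KD library.

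Among integrins in LoVo, 5 chains were higher in KD and 2 were lower, so 7 of the 13 tested passed. ITGB8, which pairs with ITGAV and activates latent TGF-beta, had 14.2, 18.6 and 16.6 CPM in KD libraries and 9.86, 9.13 and 9.86 CPM in controls. The lowest KD library lay above the highest control (log2 fold change 0.78, SE 0.13, edgeR adjusted p = 7.69e-05). ITGAV itself had 56.5, 63.3 and 60.7 CPM in KD and 53.8, 56.8 and 57.9 CPM in controls, which overlap, and did not pass (log2 fold change 0.10, adjusted p = 0.339). ITGA2, the alpha chain of a collagen receptor, had 89.0, 103 and 87.9 CPM in KD and 77.4, 74.5 and 71.9 CPM in controls. Its groups did not overlap (log2 fold change 0.32, SE 0.071, adjusted p = 0.00182). ITGA5, the alpha chain of the main fibronectin receptor, had 5.32, 5.78 and 5.45 CPM in KD and 10.1, 7.34 and 9.73 CPM in controls. All KD libraries were lower, with control 2 the nearest to them (log2 fold change -0.71, SE 0.16, adjusted p = 0.0019). ITGA3, a laminin-binding alpha chain, had 54.7, 50.7 and 53.0 CPM in KD and 66.7, 60.6 and 64.0 CPM in controls, without overlap (log2 fold change -0.27, SE 0.072, adjusted p = 0.00657).

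The other 3 integrin rises in LoVo KD were small and near the threshold. ITGB4 had 1199, 971 and 1119 CPM in KD and 995, 897 and 966 CPM in controls. KD 2 lay below control 1, so the groups overlapped (log2 fold change 0.20, SE 0.064, adjusted p = 0.0224), and the call was lost without KD 1 (0.13), KD 3 (0.19), control 2 (0.16) or control 3 (0.21). Its log2 fold change was 0.29 without KD 2. ITGA6 had 375, 435 and 394 CPM in KD and 348, 365 and 357 CPM in controls, without overlap (log2 fold change 0.17, SE 0.06, adjusted p = 0.0382). ITGB1 had 270, 303 and 292 CPM in KD and 256, 254 and 261 CPM in controls, also without overlap (log2 fold change 0.17, SE 0.059, adjusted p = 0.039). The calls of ITGA6 and ITGB1 were both lost without KD 2 (0.11 and 0.13), KD 3 (0.19 and 0.16), control 1 (0.15 and 0.16), control 2 (0.19 and 0.16) or control 3 (0.17 and 0.18). On log2(FPKM + 1) the calls of ITGB4, ITGA6 and ITGB1 were lost as well (limma adjusted p = 0.186, 0.161 and 0.145), as on log2(FPKM + 0.1). Of the integrins that did not pass, ITGB5 came closest (log2 fold change -0.17, adjusted p = 0.0674). ITGA1, ITGA7, ITGAE and ITGB6 had log2 fold changes of -0.15, 0.19, 0.13 and 0.24, with intervals that include 0. PELO lies within ITGA1, HASPIN within ITGAE and METTL7B beside ITGA7, so reads of these integrins may not be separated from theirs.

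The laminin receptor BCAM and the cytolinker PLEC were lower in LoVo KD as well. BCAM, an immunoglobulin-family receptor for the LAMA5 chain, spans 44809059 to 44821421 of chromosome 19, plus strand. It had 11.6, 10.7 and 14.5 CPM in KD libraries and 20.3, 19.1 and 22.1 CPM in controls. The highest KD library, KD 3, stayed below the lowest control (log2 fold change -0.74, SE 0.12, edgeR adjusted p = 7.29e-05). PLEC, which links integrins to keratin, had 889, 649 and 862 CPM in KD and 1069, 977 and 1085 CPM in controls. KD 2 lay well below the other KD libraries (log2 fold change -0.38, SE 0.079, adjusted p = 0.000977), and the log2 fold change was -0.25 without it. SDC4, a syndecan of focal adhesions, had 30.6, 31.4 and 30.6 CPM in KD and 39.2, 36.2 and 40.1 CPM in controls (log2 fold change -0.32, SE 0.081, adjusted p = 0.00566). DAG1, which encodes dystroglycan, had 159, 149 and 158 CPM in KD and 186, 170.5 and 178 CPM in controls (log2 fold change -0.20, SE 0.061, adjusted p = 0.0173). Neither gene overlapped between groups, but the DAG1 call was lost without KD 3 (-0.21), control 1 (-0.17) or control 3 (-0.20).

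CD44, the hyaluronan receptor, did not differ detectably in LoVo, at 248, 241 and 239 CPM in KD and 231, 230 and 243 CPM in controls (log2 fold change 0.05, 95% interval -0.07 to 0.17). CD151, a tetraspanin that binds laminin receptors, had 118, 105 and 112 CPM in KD and 121, 124 and 131 CPM in controls. All KD values of CD151 were lower, but it did not pass (log2 fold change -0.17, adjusted p = 0.0572). It passed in 4 of 15 alternative analyses, namely on log2(FPKM + 1) (adjusted p = 0.0409), on log2(FPKM + 0.1) (0.0411), with a replicate block (0.00836) and without KD 1 (0.0241). With GC and length offsets its log2 fold change was 0.05 (edgeR adjusted p = 0.473). The epithelial syndecan SDC1 missed the threshold at -0.16 on the log2 scale (adjusted p = 0.0972), and its groups overlapped.

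Promoter windows are printed for up to 3 called genes in each direction with the largest changes in LoVo (HSPG2, BCAM and AGRN lower, ITGB8, LAMA4 and ITGA2 higher), so that their letters can be read beside the values. AGRN had no RefSeq window. They run from 250 bases before to 50 after the RefSeq start on GRCh38.p14, each 5' to 3' on its gene's strand. HSPG2 is at chr1:21937261-21937560 (minus), BCAM at chr19:44808809-44809108 (plus), ITGB8 at chr7:20330650-20330949 (plus), LAMA4 at chr6:112254518-112254817 (minus) and ITGA2 at chr5:52989102-52989401 (plus). Capitals mark matches, on either strand, to GGGCGG (SP1), GCGNGGGCG (EGR), TGANTCA (AP-1) or GGAATG (TEAD), and matches of SP1 and EGR may overlap.
HSPG2: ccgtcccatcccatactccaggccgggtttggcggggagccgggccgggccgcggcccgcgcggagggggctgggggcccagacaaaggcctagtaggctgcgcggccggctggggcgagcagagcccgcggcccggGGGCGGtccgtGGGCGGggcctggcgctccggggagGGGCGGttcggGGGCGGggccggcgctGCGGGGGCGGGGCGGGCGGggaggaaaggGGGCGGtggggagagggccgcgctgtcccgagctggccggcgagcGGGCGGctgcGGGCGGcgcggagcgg
BCAM: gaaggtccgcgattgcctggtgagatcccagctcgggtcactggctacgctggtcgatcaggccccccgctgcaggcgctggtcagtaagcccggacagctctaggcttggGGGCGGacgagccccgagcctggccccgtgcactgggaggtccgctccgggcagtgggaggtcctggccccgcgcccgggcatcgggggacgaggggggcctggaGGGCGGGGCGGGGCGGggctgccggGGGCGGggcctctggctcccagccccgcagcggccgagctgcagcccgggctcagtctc
ITGB8: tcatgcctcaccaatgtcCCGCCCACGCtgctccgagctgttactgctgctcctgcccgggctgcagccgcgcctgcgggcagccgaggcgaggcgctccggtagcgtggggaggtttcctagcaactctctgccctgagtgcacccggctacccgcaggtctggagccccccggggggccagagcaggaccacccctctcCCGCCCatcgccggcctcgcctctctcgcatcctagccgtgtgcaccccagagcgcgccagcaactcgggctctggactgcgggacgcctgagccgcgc
LAMA4: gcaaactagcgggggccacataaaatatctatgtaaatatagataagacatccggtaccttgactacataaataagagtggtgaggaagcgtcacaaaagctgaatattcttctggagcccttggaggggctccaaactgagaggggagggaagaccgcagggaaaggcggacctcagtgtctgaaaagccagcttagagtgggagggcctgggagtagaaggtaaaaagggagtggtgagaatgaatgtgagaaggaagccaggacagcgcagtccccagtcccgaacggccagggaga
ITGA2: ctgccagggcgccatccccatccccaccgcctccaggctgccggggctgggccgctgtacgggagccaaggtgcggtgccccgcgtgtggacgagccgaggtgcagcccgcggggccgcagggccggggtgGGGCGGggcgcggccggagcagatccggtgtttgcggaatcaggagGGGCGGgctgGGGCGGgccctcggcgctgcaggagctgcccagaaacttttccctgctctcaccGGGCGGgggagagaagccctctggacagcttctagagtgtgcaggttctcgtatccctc
The HSPG2 window is 83.3% GC and holds 10 SP1 matches and 1 EGR match, and the BCAM window is 76.0% GC with 5 SP1 matches. ITGB8 has 2 SP1 matches and 1 EGR match in a window of 71.7% GC, ITGA2 has 4 SP1 matches in 72.7% GC, and LAMA4 has no match to any of the 4 motifs in 51.3% GC. RefSeq windows were found for 25 of the 33 genes. Their median GC was 75.0% in the 8 genes lower in LoVo KD, 62.0% in the 6 higher ones and 62.5% in the 10 that did not pass, against 58.7% in all windows. The ranges overlap, with LAMB2, lower in KD, at 58.7% and LAMB1, higher in KD, at 71.0%. GGGCGG occurred in 19 of the 25, in 8 of 8 genes lower in LoVo KD and 4 of 6 higher ones, against 45.0% of all 35116 windows of the same length. GCGNGGGCG occurred in 4 of 25 (9.43% of all), TGANTCA in 3 (7.71% of all) and GGAATG in 1 (14.0% of all). A match describes the letters only.

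The GC content of the transcripts moved with these changes in LoVo. Tested genes were taken here if they had a GC value and an average log2 CPM above 1. Over these, the log2 fold change of KD over control had a Spearman correlation of -0.51 with the GC content of the longest transcript. Across 4 bins of equal size its median was 0.15, 0.09, -0.04 and -0.20, in order of rising GC. Genes of the top bin minus those of the bottom bin stood at 0.00, -0.38 and -0.16 on the log2 scale in KD libraries 1, 2 and 3, and at 0.26, 0.08 and 0.20 in control libraries 1, 2 and 3. The 11 genes lower in KD had a median transcript GC of 61.3%, the 7 higher ones 42.9% and the 12 that did not pass 53.1%. Over the 30 genes tested, Spearman's rho was -0.64, and these genes share libraries and depth, so it is a description only.

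A fit with offsets for GC content and length, added after seeing the data, kept 13 of the 18 calls in LoVo. It called 15 of the 30 genes tested, against 23.3% of all 15771 genes tested in it. Of its 3679 calls over all genes, 55.5% were higher in KD, against 47.9% without offsets. HSPG2 stood at -1.07 on the log2 scale, ITGA5 at -0.59, LAMC1 at -0.50, BCAM at -0.46, AGRN at -0.39, LAMA5 at -0.38, SDC4 at -0.34 and LAMB2 at -0.21. Among genes that were higher, LAMA4 stood at 0.73, ITGB8 at 0.64, ITGB4 at 0.49, LAMB1 at 0.28 and ITGA2 at 0.21. The log2 fold changes of AGRN, LAMA5, LAMB2, BCAM and ITGA2 were thus more than 1.5 times smaller, and that of ITGB4 over 1.5 times larger. PLEC (-0.04), ITGA3 (-0.02), DAG1 (-0.07), ITGA6 (0.09) and ITGB1 (0.04) were no longer called. LAMB3 (0.19, adjusted p = 0.000382) and ITGA7 (0.42, adjusted p = 0.0111) were called in this fit only. Of genes called in neither fit, SDC1 (-0.16 without and 0.05 with offsets), CD151 (-0.17 and 0.05) and ITGAV (0.10 and -0.04) changed sign. The offsets also take out any change of expression that follows GC content, and such change and a technical shift cannot be told apart in these libraries.

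**Figure D4:**
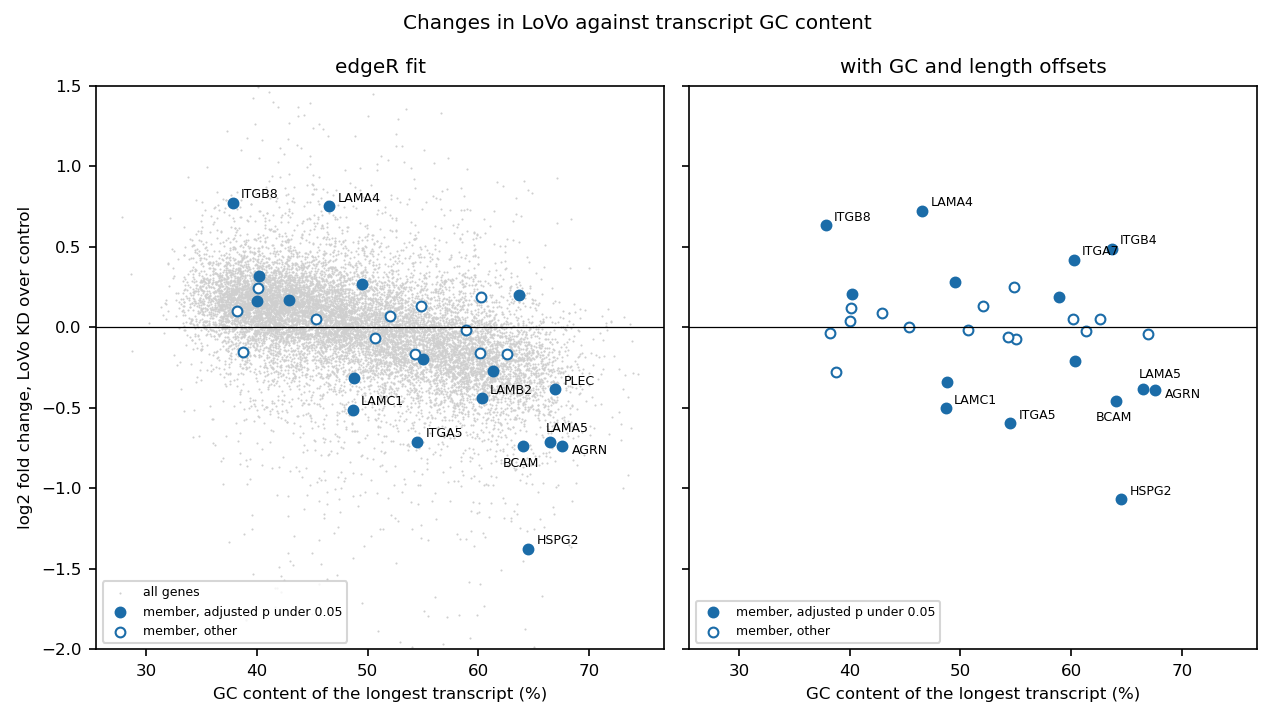
Log2 fold change in LoVo, KD over control, against the GC content of the longest transcript. The left panel shows the genes used for the GC correlation above (grey) and the 30 tested adhesion and basement membrane genes (blue, filled where called). The right panel shows those 30 in the fit with GC and length offsets. HSPG2 lies at -1.38 in the left panel and -1.07 in the right, and PLEC at -0.38 in the left and -0.04 in the right. Genes beyond the axis limits are not drawn.

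The comparison within HCT116 asked the same of SLERT overexpression, and there 1 of the 30 genes tested passed, against 0.914% of all 15980 genes tested. BCAM was lower in OE, at 94.0, 80.2 and 85.0 CPM in OE libraries 1, 2 and 3 and 112, 102 and 102 CPM in control libraries 1, 2 and 3. Every OE library lay below every control (log2 fold change -0.29, SE 0.065, edgeR adjusted p = 0.0285). Dropping control 1 ended the call (-0.24, adjusted p = 0.21), as did dropping control 2 (-0.31, adjusted p = 0.0791), OE 2 (-0.23, adjusted p = 0.145) or OE 3 (-0.27, adjusted p = 0.141). It was lost as well with all 12 libraries in 1 fit (adjusted p = 0.0691) and on log2(FPKM + 1) (0.206). Without OE 1 it held, and LAMA5 (-0.25) and HSPG2 (-0.29) passed too, which made 3 calls.

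Other genes came near the threshold in HCT116. LAMB2 had 183, 176 and 191 CPM in OE and 221, 204 and 215 CPM in controls, without overlap (log2 fold change -0.22, SE 0.055, adjusted p = 0.0522). SDC1 had 104, 94.6 and 108 CPM in OE and 85.6, 88.0 and 86.1 CPM in controls, all OE libraries being higher (log2 fold change 0.24, SE 0.062, adjusted p = 0.0601). LAMA4 had 8.85, 8.47 and 10.9 CPM in OE and 8.21, 5.93 and 5.95 CPM in controls, with control 1 close to the OE libraries (log2 fold change 0.48, SE 0.15, adjusted p = 0.123). HSPG2 had 160, 135 and 138 CPM in OE and 178, 164 and 160 CPM in controls, where OE 1 overlapped the lowest control (log2 fold change -0.21, SE 0.063, adjusted p = 0.104). LAMB2 passed in DESeq2 (adjusted p = 0.0203) and with upper quartile factors (0.0404), and SDC1 in DESeq2 (0.03). Of the 30, 10 had an unadjusted p under 0.05, against 14.4% of all genes tested, and 8 did not overlap between groups, against 19.1% of all genes tested. The median log2 fold change was -0.01, against 0.00 for all genes tested. ITGB6, NID1 and NID2 had too few counts to be tested.

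The abundant genes of HCT116 stood close together in both groups. PLEC had 1432, 1223 and 1247 CPM in OE and 1374, 1359 and 1178 CPM in controls. ITGA3 had 622, 551 and 576 CPM in OE and 643, 617 and 604 CPM in controls, and ITGB1 had 601, 637 and 610 CPM in OE and 627, 628 and 601 CPM in controls. The groups overlapped for all 3, with log2 fold changes of 0.00, -0.09 and -0.01. ITGB4 had 446, 372 and 414 CPM in OE and 467, 451 and 429 CPM in controls (log2 fold change -0.13, adjusted p = 0.305). LAMA5 had 508, 426 and 439 CPM in OE and 539, 527 and 482 CPM in controls (log2 fold change -0.17, adjusted p = 0.162). Both overlapped between groups. CD44 had 455, 468 and 457 CPM in OE and 490, 472 and 468 CPM in controls, which do not overlap (log2 fold change -0.05, adjusted p = 0.698). DAG1 had 256, 241 and 250 CPM in OE and 256, 236 and 232 CPM in controls, and SDC4 had 108, 109 and 114 CPM in OE and 104, 105 and 115 CPM in controls. Neither passed, with log2 fold changes of 0.05 and 0.03. In HCT116, over genes kept by the same GC and level rule as in LoVo, the log2 fold change correlated with transcript GC at -0.04. Its correlation with transcript length was -0.21. With GC and length offsets 4 genes were called, against 4.88% of all 15559 genes tested in that fit, namely BCAM (-0.26), LAMB2 (-0.16), SDC1 (0.25) and LAMA4 (0.53).

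Whether the genes moved alike with more SLERT by label was tested with all 12 libraries in 1 fit. The value was the change of OE over control in HCT116 minus the change of control over KD in LoVo. The SLERT locus showed no clear fall with the KD label, so the LoVo side rests on the labels alone. Of 32 genes tested, 11 passed, 10 below 0 and LAMA4 above it, against 14.6% of all 18199 genes tested (7.61% below and 6.94% above 0). The 10 were HSPG2, BCAM, LAMA5, AGRN, ITGA5, LAMB2, LAMC1, PLEC, ITGA3 and SDC4, each of them lower in LoVo KD. HSPG2 had a difference of -1.59 (SE 0.12, edgeR adjusted p = 3.80e-10), the sum of -0.21 for OE over control in HCT116 and -1.38 for KD over control in LoVo. LAMA4 had a difference of 1.23 (SE 0.24, adjusted p = 0.000935), the sum of 0.48 for OE over control in HCT116 and 0.75 for KD over control in LoVo. Only BCAM was called in both lines, lower with OE in HCT116 and lower with KD in LoVo, and its difference was -1.03 (SE 0.13, adjusted p = 2.69e-06). The GC and length offsets were not applied to this comparison, and since it holds the LoVo libraries, the GC values given above stand beside it too.

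The LoVo and HCT116 controls differed widely in these genes, with laminin receptors built on ITGB4 and ITGA6 and the hemidesmosome laminin higher in LoVo, and ITGB1 and the ITGA3 and ITGA5 chains lower in LoVo. Of 31 genes tested, 25 passed, 8 higher and 17 lower in LoVo, against 79.0% of all 17143 genes tested (39.0% higher and 39.9% lower). The share is close to that of all genes. The median log2 fold change of the 31 was -0.31, against 0.00 for all genes tested. Called changes reached 2-fold or more in 15 genes, against 39.7% of all genes tested, and the libraries of the lines did not overlap for 25 genes, against 79.8% of all genes tested. Line, vector and culture differ together here and cannot be told apart.

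ITGA5 had 9.84, 7.19 and 9.50 CPM in LoVo controls and 123, 116 and 110 CPM in HCT116 controls, a 13.2-fold lower level in LoVo (log2 fold change -3.72, SE 0.089, adjusted p = 5.70e-26). ITGA3 had 65.2, 59.3 and 62.5 CPM in LoVo controls and 668, 643 and 632 CPM in HCT116 controls (log2 fold change -3.38, SE 0.059). BCAM had 19.8, 18.7 and 21.6 CPM in LoVo controls and 116, 107 and 107 CPM in HCT116 controls (log2 fold change -2.46, SE 0.073). The groups of all 3 genes lay far apart. ITGB1, their usual beta partner where they are integrins, had 251, 248 and 255 CPM in LoVo controls and 651, 654 and 628 CPM in HCT116 controls (log2 fold change -1.36, SE 0.051). ITGA7 (-2.06), ITGB3 (-2.02), SDC4 (-1.58), HSPG2 (-1.21), CD44 (-1.11) and ITGA2 (-1.08) were lower in LoVo by 2-fold or more as well. Smaller differences in the same direction were called for ITGAE (-0.67), LAMA4 (-0.64), DAG1 (-0.53), PLEC (-0.41), ITGAV (-0.34), SDC1 (-0.31) and LAMA5 (-0.17). The LAMA5 call was lost without LoVo control 2 (-0.11).

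On the other side, LAMA3 had 82.7, 71.5 and 75.0 CPM in LoVo controls and 16.1, 14.1 and 15.0 CPM in HCT116 controls, and was 5.07-fold higher in LoVo (log2 fold change 2.34, SE 0.082, adjusted p = 1.20e-21). LAMB3, which assembles with LAMA3, had 225, 211 and 225 CPM in LoVo controls and 72.4, 67.2 and 73.6 CPM in HCT116 controls (log2 fold change 1.63, SE 0.056). The lines did not overlap for either chain. ITGB4 had 973, 878 and 943 CPM in LoVo controls and 485, 469 and 449 CPM in HCT116 controls (log2 fold change 0.99, SE 0.054). ITGA6 had 340, 357 and 349 CPM in LoVo controls and 174, 174 and 179 CPM in HCT116 controls (log2 fold change 0.99, SE 0.051). Both partners were thus 1.99-fold higher in LoVo. ITGB6, a partner of ITGAV, had 43, 44 and 58 counts in LoVo controls and 0, 2 and 4 in HCT116 controls (log2 fold change 4.60, SE 0.49). NID2 (3.76), ITGA1 (1.78) and ITGB8 (0.62) were higher in LoVo as well. ITGB5, LAMB1, LAMB2, LAMC1, AGRN and CD151 did not pass, with log2 fold changes between -0.12 and 0.09. With GC and length offsets 27 genes were called, 13 of them higher in LoVo, beside 13338 of all genes, 51.4% of them higher. In that fit LAMA5 (0.25, edgeR adjusted p = 1.56e-06) and LAMB2 (0.14, adjusted p = 0.00324) were called with the other sign. PLEC changed sign and was no longer called (0.05, adjusted p = 0.314). AGRN reached 0.51, and the call of ITGAV was lost (-0.09, adjusted p = 0.163).

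**Figure D5:**
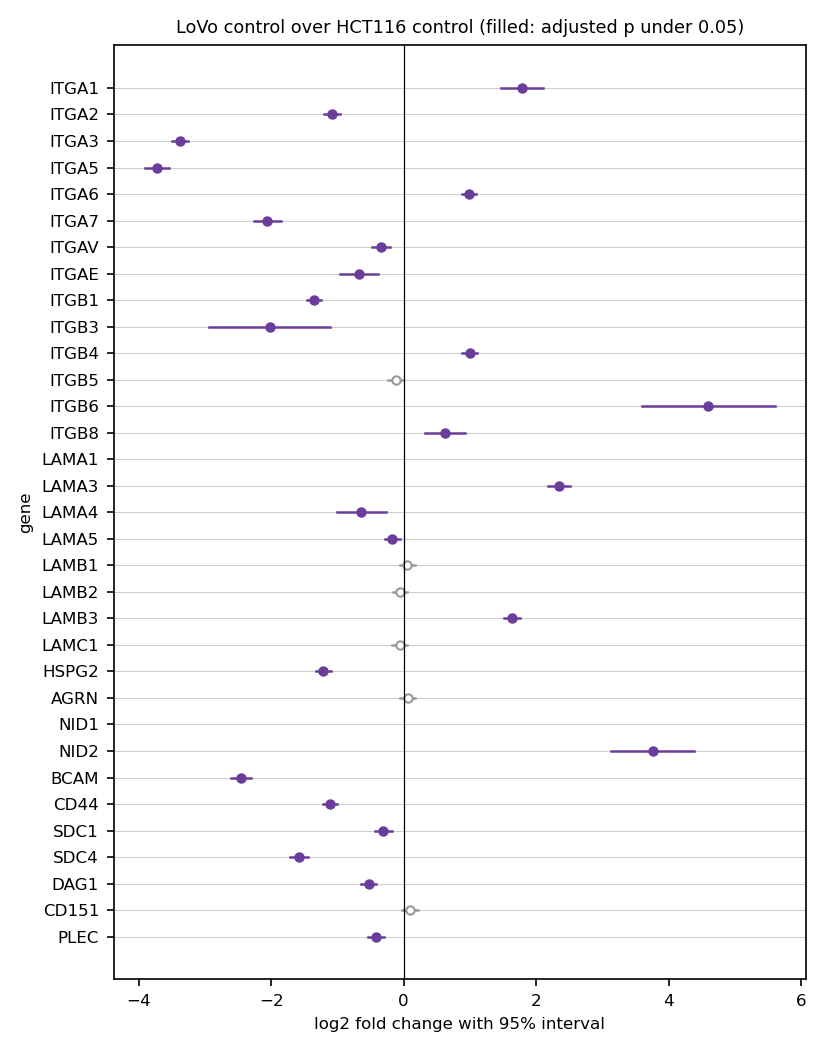
Log2 fold changes of LoVo control over HCT116 control with 95% intervals for the tested genes, filled where the edgeR adjusted p is under 0.05. ITGB6 (4.60), NID2 (3.76) and LAMA3 (2.34) lie farthest to the right, ITGA5 (-3.72) and ITGA3 (-3.38) farthest to the left, and the 6 open points lie near 0.

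Genes around the 33 in the same pathways also differed between LoVo KD and control. Of 6 further basement membrane and anchoring collagens tested, 3 fell and 0 rose in KD, namely COL17A1, the transmembrane collagen of hemidesmosomes (77.5 CPM in KD and 134 CPM in controls, log2 fold change -0.79), COL7A1, the anchoring fibril collagen (-0.97), and COL18A1 (-0.98), a collagen with heparan sulfate chains. The median of the 6 was -0.24. Of 4 further laminin and netrin genes 1 rose and 2 fell, among them LAMA2 (0.41) and NTN4 (-0.36). Of 5 other basement membrane genes, FRAS1 fell (-1.36) and PXDN, which cross-links type IV collagen, rose (1.44) at 0.927 CPM in KD and 0.338 CPM in controls. Of 6 further integrins tested, ITGA10 (-0.73) and ITGB2, the leukocyte beta chain at 0.468 CPM in KD and 1.14 CPM in controls (-1.28), fell.

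Of 11 integrin ligands tested in LoVo, 4 fell and 2 rose in KD. THBS1, which encodes thrombospondin, had 356 CPM in KD and 683 CPM in controls (log2 fold change -0.94, SE 0.054, edgeR adjusted p = 1.10e-11), and TNC, tenascin-C (-1.25), and MFGE8 (-0.86) fell too. Of 30 focal adhesion genes 11 fell and 5 rose, with a median of -0.16. NEDD9, a docking protein of the BCAR1 family, fell (-1.24), as did the actin cross-linker FLNA (-0.42), and FERMT1, the epithelial kindlin that activates integrins, rose (0.47). Of 10 hemidesmosome and cytolinker genes 6 fell and 0 rose, led by KRT5 (-2.77), COL17A1 and KRT8 (-0.32), with a median of -0.29. Of 10 syndecan, glypican and heparan sulfate genes 3 fell and 2 rose, among them GPC1 (-0.64), GPC4 (0.78) and HS2ST1 (0.40). Of 12 tetraspanins 3 rose and 1 fell, led by TSPAN8 (0.40), TSPAN13 (0.46) and TSPAN3 (0.29). Of 20 dystroglycan complex genes 3 fell and 2 rose, led by B4GAT1 (-0.55) and UTRN (0.50). Of 13 CD44 partners 5 fell and 3 rose, led by ESRP1, a splicing factor of epithelia (0.65), MSN (-0.41) and MMP14 (-0.37). The calls of these lists range from 25% to 75% of the genes tested, beside 26.3% for all genes, and the GC values above stand beside them too. In HCT116 OE no gene of these lists passed edgeR's test, which called 0.914% of all genes tested.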

How the data were processed

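The authors deposited a table of read counts per Ensembl gene, whole numbers that are not normalised, and a table of FPKM. Deposited FPKM were the same counts scaled by length and library total. The submitters' processing notes name HISAT2 2.1.0 and the build GRCh38. Counter, annotation and strand setting: not given in the sources used here. Overlapping genes may thus share reads. The HCT116 control columns were assigned by their empty vector heading, which names the group but no labelled sample.

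Groups came from the labels. The 33 genes, the pathway lists, the motifs and the rule for naming were chosen with earlier results of these data known. Genes given library by library are those that passed the test in either line or rank among the 8 highest by mean FPKM, and up to 3 genes per list with the smallest p are named, with some further members chosen after their values were seen. Some genes that this rule would name are not reported here. Tests used edgeR 4.0.16 in R 4.3.3 (quasi-likelihood, TMM factors, filterByExpr), with Benjamini-Hochberg adjustment over all genes tested and calls at an adjusted p under 0.05. CPM are normalised with the same factors, separately for each comparison. The scripts were tested on simulated data. Alternatives were RLE and upper quartile factors, DESeq2 1.42.0, no filter, all 12 libraries in 1 fit, limma 3.58.1 on log2 of FPKM plus 1 or 0.1, a replicate block, leaving out each library and, chosen after seeing the data, offsets for transcript GC content and length, which covered the 97.0% to 97.4% of tested genes with a GC value.

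Total counts were 14.46 to 17.23 M per library. Within groups, correlations of log2 CPM were 0.997 to 0.998, and no pair was within sampling noise (chi-square per degree of freedom 2.40 to 6.63). With 3 libraries against 3, an exact permutation test could not go below 0.1, so none was used. Floors of 3 counts cover counting error only.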

Additional observations from a re-analysis of the deposited data

Results flagged for a closer look

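The change with OE over control in HCT116 minus the change of control over KD in LoVo differed from 0 by edgeR's test for 11 genes. On the log2 scale the difference was -1.59 for HSPG2 (SE 0.12), -1.03 for BCAM (SE 0.13), -0.89 for LAMA5 (SE 0.12), -0.86 for AGRN (SE 0.11), -0.71 for ITGA5 (SE 0.15), -0.66 for LAMB2 (SE 0.091) and -0.48 for LAMC1 (SE 0.077). It was -0.39 for PLEC (SE 0.11), -0.37 for ITGA3 (SE 0.083) and -0.29 for SDC4 (SE 0.095), and 1.23 for LAMA4 (SE 0.24). All but LAMA4 were lower in the LoVo KD libraries than in their controls. The GC content of the transcripts moved with the LoVo changes, and its part in these differences was not tested.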

How the results depend on the processing

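In LoVo, 10 of the 18 calls held in all 15 alternatives: HSPG2, AGRN, LAMA5, LAMB2, LAMC1, BCAM, ITGA5, SDC4, ITGB8 and ITGA2. Leaving out each library gave 14 to 19 called genes of the 33 and 2769 to 4813 of all genes, with 2809 without control 1 and 2769 without control 3. On log2(FPKM + 1), 2845 of all genes were called, 34.0% of them higher (34.2% on log2(FPKM + 0.1)) against 47.9% in edgeR. With GC and length offsets 3679 genes were called, 55.5% of them higher, LAMB3 turned to 0.19, and SDC1 (0.05), CD151 (0.05) and ITGAV (-0.04), called in neither fit, changed sign; the offsets by their construction remove shifts that follow GC content or length. In HCT116, the 33 genes gave 2 calls with upper quartile factors, 3 with DESeq2, 3 without a filter, 4 with the offsets and 0 with all 12 libraries in 1 fit or on log2 of FPKM plus 1 or 0.1, and 0 to 3 with a library left out. Of all genes in HCT116, 256 were called by DESeq2, 256 without a filter, 7 on log2(FPKM + 1), 7 on log2(FPKM + 0.1) and 759 with the offsets, and 37 to 287 with a library left out, with 37 and 38 when control 1 or control 2 was dropped, 287 when control 3 was, and 43 and 37 when OE 2 or OE 3 was. The share of higher calls there was 55.5%, and 41.8% with upper quartile factors, 44.0% with all 12 libraries and 71.3% with the offsets. Between the lines, 22 of 25 calls held in every alternative, and leaving out a library gave 24 to 27 calls among the 33 and 13366 to 13596 among all genes. With the offsets LAMA5 turned to 0.25, LAMB2 to 0.14 and PLEC, no longer called, to 0.046. For the difference between lines, leaving out a library gave 9 to 11 and 1787 to 3108 calls. Beyond these cases the cause of a change was not tested.

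With the replicate number as a block in LoVo, 5588 genes and 21 of the 33 were called, all 18 earlier calls among them, and ITGB5, SDC1 and CD151 were added. Same-numbered KD and control libraries correlated in their deviations from the group means at 0.117, 0.154 and 0.00138. KD 1 and KD 2 correlated best with the same-numbered control, but KD 3 did so with control 1 (0.0312). The numbers were not taken as pairs in the main fit, and whether they are pairs is not resolved. The block was not run in HCT116, between lines or for the difference, because the numbers in the HCT116 control columns are not tied to labelled samples. Genes with few counts (ITGB3, ITGB6, LAMA1, NID1, NID2) are limited by depth.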
